A study of Mus musculus with 2 samples.

Results

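Vomeronasal receptor genes were taken as every annotated gene whose symbol starts with Vmn1r or Vmn2r on mouse chromosomes 1 to 19 (GENCODE M1 annotation, mm9 genome). These are 435 of the 34653 genes annotated there, 256 Vmn1r and 179 Vmn2r, under 431 different symbols. Each gene was widened by 5 kb on both sides, and regions less than 200 kb apart were joined, which gave 50 clusters that cover 20.7 Mb. Members occur on 12 chromosomes. Chromosome 7 holds 237 of them, chromosome 6 holds 68, chromosome 17 holds 47 and chromosome 13 holds 41. By annotation 327 are protein coding, 105 are pseudogenes and 3 are processed transcripts, so pseudogenes are counted as members.

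The binding of CTCF was measured by ChIP-seq in R1/E cells, a mouse embryonic stem cell (ESC) line grown with LIF on gelatine. The line carried, beside its own Ctcf gene, a stably integrated bacterial artificial chromosome (BAC) with Ctcf fused to a LAP tag that contains GFP. One library was made with a goat anti-eGFP antibody (CTCF ChIP, n = 1) and 1 library with a goat IgG isotype control from the same tagged line (IgG control, n = 1), which the label also calls input DNA. Both came from chromatin crosslinked with 1% formaldehyde, sonicated to about 500 bp and precipitated with 5 µg antibody. The CTCF library held 8391191 tags of 35 bp and the IgG library 7988889. Without replicates, every interval given here is a 95% interval for counting error alone, and every p-value compares these 2 libraries and not conditions.

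CTCF is a zinc finger protein that binds a long DNA motif and, with cohesin, sets the borders of chromatin loops. Vomeronasal receptors detect pheromones and other social cues in the vomeronasal organ. The Vmn1r genes encode receptors with short extracellular ends, found in apical sensory neurons together with the G protein subunit Gnai2, and their coding sequence lies in a single exon. The Vmn2r genes encode receptors with a large extracellular domain, found in basal neurons together with Gnao1. A sensory neuron expresses one or very few of these genes, and ESCs are not a cell type in which they are known to act. Both families grew by local duplication, so their clusters are rich in near-identical sequence.

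The CTCF motif was described by a matrix from 192 CTCF sequences listed in the supplement of the study. Its most frequent bases over 19 positions are as follows, 5′ to 3′.
CTCF consensus: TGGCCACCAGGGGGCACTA
Motifs that reach 13.1 bits against this matrix, a score that random sequence of the same base composition reaches at 1e-05 of positions, are shown in capitals in the sequences that follow, each read in motif orientation from mm9 with 11 bases on either side. The sites with the 5 highest CTCF summits inside the clusters come first, since they show what bound sites in these clusters look like.
Clcn4-2 promoter site, chr7:7252260-7252300, minus strand: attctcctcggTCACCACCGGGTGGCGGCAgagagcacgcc
Vmn1r90 intron site, chr7:15121959-15121999, plus strand: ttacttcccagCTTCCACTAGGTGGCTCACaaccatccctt
site 11853 bp from the Vmn1r235 start, chr17:21409222-21409262, plus strand: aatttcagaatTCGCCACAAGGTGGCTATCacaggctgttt
site 25043 bp from the Vmn2r-ps86 start, chr7:93360045-93360085, minus strand: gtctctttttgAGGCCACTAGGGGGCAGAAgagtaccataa
Zfp606 intron site, chr7:13071472-13071512, plus strand: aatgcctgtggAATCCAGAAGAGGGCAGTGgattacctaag
The next set holds the 3 highest-scoring motifs in the clusters that carried no summit, each at 24.9 bits.
motif 19863 bp upstream of Vmn1r224, chr17:20536244-20536284, plus strand: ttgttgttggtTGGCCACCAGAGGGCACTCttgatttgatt
motif 15759 bp upstream of Vmn1r181, chr7:24753201-24753241, plus strand: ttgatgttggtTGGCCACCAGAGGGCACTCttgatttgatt
Vmn1r90 second motif, chr7:15178531-15178571, plus strand: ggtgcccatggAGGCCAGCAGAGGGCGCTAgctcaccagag
The last set shows the 5 bound sites of the cluster from Vmn2r8 to Vmn2r17, which carried the same 19 bases, with a 6th copy just outside its edge. Distances are those of the summit from the nearest member start, and none of these sites lies in the region of a member.
copy outside the edge, chr5:109219584-109219624, plus strand: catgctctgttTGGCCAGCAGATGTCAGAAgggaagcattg
copy 16249 bp from the Vmn2r9 start, chr5:109265328-109265368, plus strand: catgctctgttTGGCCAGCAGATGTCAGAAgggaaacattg
copy in Gm10417, chr5:109295958-109295998, plus strand: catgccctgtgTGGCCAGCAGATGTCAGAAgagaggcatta
copy 26280 bp from the Vmn2r10 start, chr5:109461772-109461812, plus strand: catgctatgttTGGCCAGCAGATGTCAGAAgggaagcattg
copy 12851 bp from the Vmn2r11 start, chr5:109501225-109501265, plus strand: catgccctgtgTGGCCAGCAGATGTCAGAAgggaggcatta
copy 41784 bp from the Vmn2r12 start, chr5:109568728-109568768, plus strand: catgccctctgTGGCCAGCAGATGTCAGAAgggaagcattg

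The clusters held few CTCF summits, the positions of highest tag pileup in the deposited peaks. There were 29 summits in 20.6 Mb of sequence without gaps, 1.41 per Mb (exact Poisson interval 0.943 to 2.02). The rest of chromosomes 1 to 19 held 33197 summits, 14 per Mb (13.8 to 14.1), so that the density in the clusters was 0.101 times that elsewhere (exact interval 0.0674 to 0.145). At the rate elsewhere, sequence of this length would hold 288 summits. The 100 kb on each side of the clusters held 108 summits, 11 per Mb (9.04 to 13.3), and the clusters stood at 0.128 times their own flanks (0.0818 to 0.194). Of the 50 clusters, 34 with 201 members held no summit, 9 held 1, 6 held 2 or 3, and 1 held 5. Single members form 14 of the clusters and the shortest spans 10.6 kb, so short clusters can lack a summit at the rate elsewhere as well. The share of empty olfactory receptor clusters is not given here, so the count of 34 lacks a background.

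Per Mb of sequence, the Vmn1r clusters held the fewest summits. The 17 clusters with Vmn1r genes alone held 5 summits in 7.33 Mb, 0.682 per Mb (0.222 to 1.59). The 29 clusters with Vmn2r genes alone held 17 summits in 9.32 Mb, 1.82 per Mb (1.06 to 2.92), and the 4 clusters with both held 7 summits in 3.94 Mb, 1.77 per Mb (0.713 to 3.66). The ratio of the Vmn1r to the Vmn2r density was 0.374, with an interval from 0.108 to 1.06 that includes 1, so the families were not told apart at these counts.

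Olfactory receptor genes, the other large set of clustered chemoreceptor genes, and long gaps between genes were the closest comparisons. Olfactory receptor clusters, built by the same rule, held 118 summits at 4.0 per Mb (3.31 to 4.79), and the vomeronasal density was 0.352 times theirs (0.226 to 0.533). The 452 gaps of 500 kb or more between genes held 3.01 summits per Mb (2.84 to 3.19), and the vomeronasal density was 0.468 times theirs (0.312 to 0.675). Both intervals lie below 1. One vomeronasal cluster also overlaps olfactory receptor genes, so these sets are not fully separate.

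**Figure D1:**
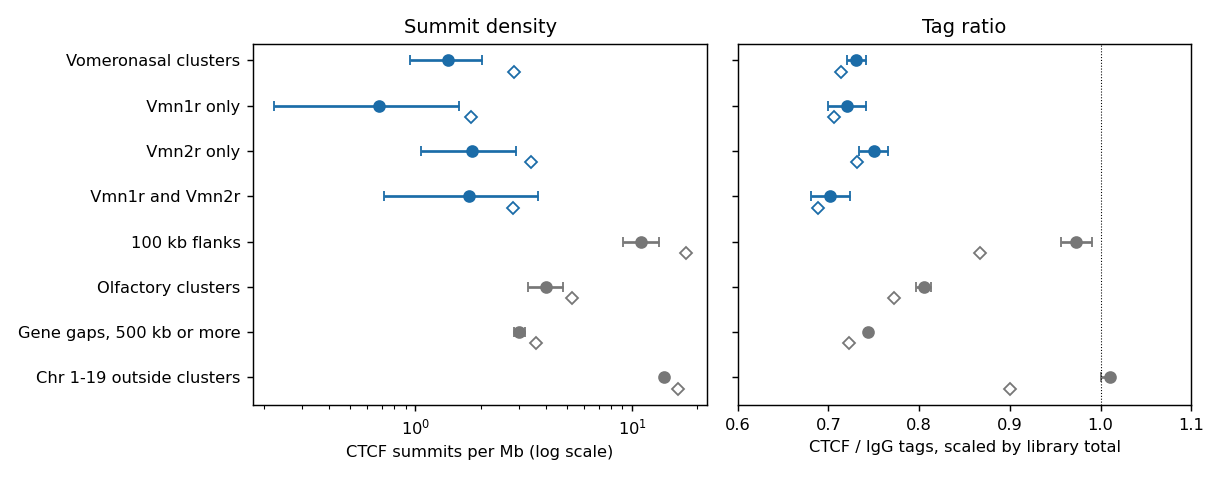
CTCF summit density (left, summits per Mb, log axis) and the CTCF to IgG tag ratio scaled by library totals (right) in the vomeronasal clusters (blue) and other regions (grey); circles with bars give values with 95% intervals for counting error, and open diamonds give summits per Mb of unique 35-mer starts (left) or the ratio outside peaks (right). The vomeronasal clusters lie at 1.41 summits per Mb, against 11 in their flanks and 14 elsewhere.

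A tag can be placed in these clusters only where 35 bases occur once in the genome. Of the 35-mer starts in the clusters, 49.6% were unique in mm9, against 62.0% in the flanks, 75.4% in olfactory receptor clusters and 86.0% on chromosomes 1 to 19 outside the clusters. In both libraries, over 99% of the tags in the clusters began at a unique 35-mer (99.2% for CTCF, 99.1% for IgG). The IgG library showed how many tags this sequence yields without a CTCF antibody. It had 1949.7 tags per Mb in the clusters and 3242 elsewhere, a ratio of 0.601 (0.596 to 0.607). Per Mb of unique starts the same library had 3934 and 3771 tags, a ratio of 1.04 (1.03 to 1.05).

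Counted per unique 35-mer start, CTCF summits were still fewer in the clusters. There were 2.84 summits per Mb of unique starts against 16.3 elsewhere, a ratio of 0.175 (0.117 to 0.251) in place of 0.101. The unique sequence of the clusters would hold 166 summits at the rate elsewhere, and 29 were present. Against the flanks the ratio was 0.160 (0.102 to 0.243), and against olfactory receptor clusters 0.536 (0.344 to 0.810). Against the gaps between genes it was 0.786, with an interval from 0.524 to 1.14, so that on this scale the clusters and the gaps were not told apart. Unique starts made up 37.8% of the clusters with Vmn1r genes alone, 53.3% of those with Vmn2r genes alone and 62.7% of those with both. Per unique start the ratio of the Vmn1r to the Vmn2r density was 0.528, with an interval from 0.152 to 1.49 that includes 1.

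The share of unique sequence ranged widely between clusters, and the IgG tags followed it. There were 9 clusters with 100 members and 5.18 Mb of sequence in which less than 25% of starts were unique (6.22% together). They held 905 IgG tags and stood at 0.0539 times the IgG density elsewhere. Their summits numbered 2. In 37 clusters with 314 members at least 50% of starts were unique (65.8% together). These held 24 summits in 14.3 Mb, 1.67 per Mb or 0.120 times the density elsewhere (0.0767 to 0.178), while their IgG density was 0.803 times that elsewhere (0.795 to 0.811). The remaining 4 clusters, with 25 to 50% unique starts, held 3 summits. Per unique start the relative summit density was 0.382 (0.0463 to 1.38) in the clusters under 25%, 0.408 (0.0841 to 1.19) in those from 25 to 50% and 0.156 (0.100 to 0.233) in those with at least 50%. The first 2 intervals include 1, so that the lower density per unique start was resolved in the clusters with at least 50% unique starts.

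**Figure D2:**
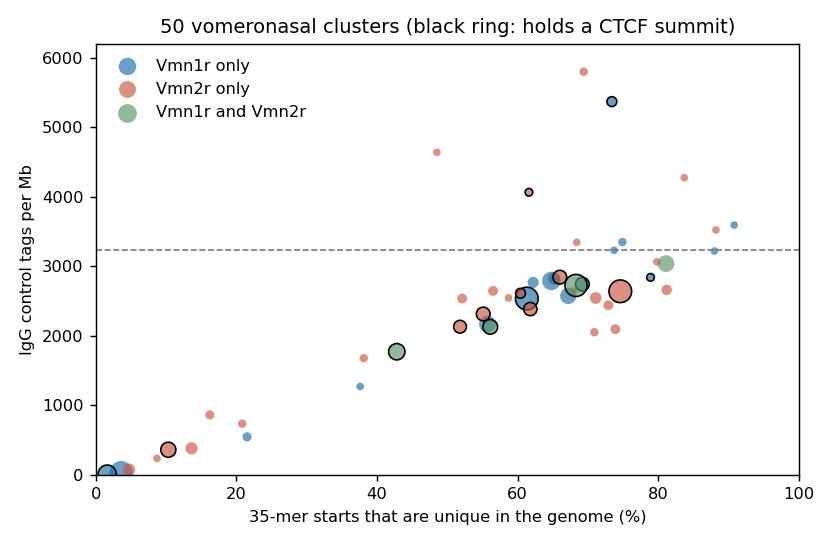
Each point is 1 of the 50 clusters, placed by the percentage of its 35-mer starts that are unique in mm9 and by its IgG tags per Mb; colour gives the family (blue Vmn1r, red Vmn2r, green both), area grows with the number of members, black rings mark the 16 clusters with a CTCF summit, and the dashed line is the IgG density outside the clusters, 3242 tags per Mb. Clusters with under 25% unique starts lie between 9.24 and 862 IgG tags per Mb, and those with at least 50% lie between 2051 and 5801.

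Along the sequence, summit density changed most at the cluster edge. In the outermost 50 kb inside the clusters there were 8 summits, 2.08 per Mb (0.900 to 4.11), and in the first 50 kb outside there were 54, 11 per Mb (8.24 to 14.3). Further inside, between 50 and 300 kb from an edge, each 50 kb bin held 1 to 5 summits and its density lay between 0.456 and 1.77 per Mb. Outside, the density was 11.1 per Mb at 50 to 100 kb, 13.6 per Mb at 200 to 250 kb and 16.8 per Mb at 450 to 500 kb. Unique 35-mers rose from 54.5% to 61.4% across the edge. The edges come from the annotation of the receptor genes and not from the ChIP-seq data.

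**Figure D3:**
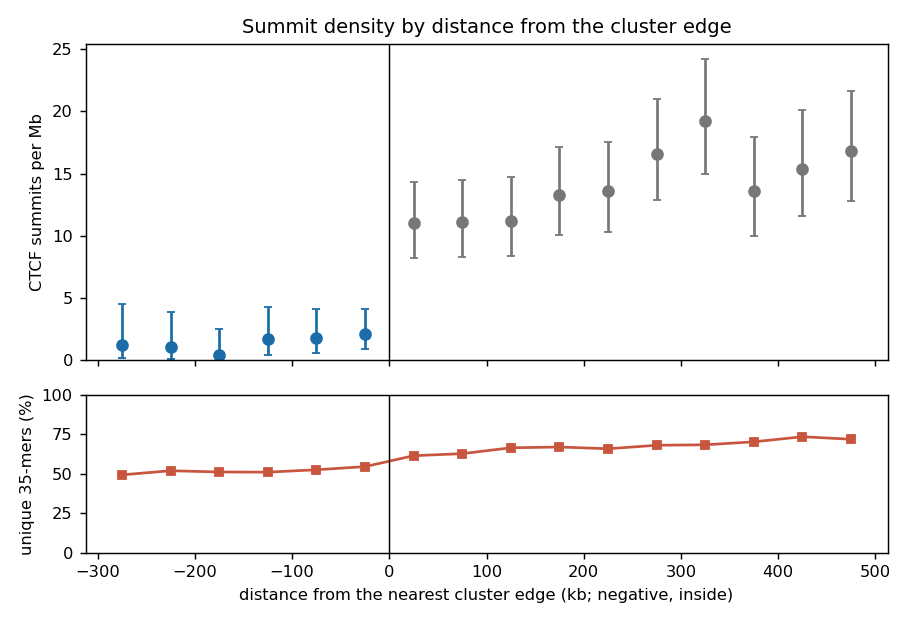
CTCF summits per Mb (top, with exact Poisson intervals) and the percentage of unique 35-mer starts (bottom) in 50 kb bins by distance from the nearest cluster edge, negative inside. Density is 2.08 per Mb in the last bin inside and 11 per Mb in the first bin outside.

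For the receptor genes themselves the nearest summit was usually far away. The median distance from the start of a member to the nearest summit was 185 kb (quartiles 79.5 and 395 kb), 215 kb for Vmn1r and 149 kb for Vmn2r genes. For olfactory receptor genes the median was 115 kb and for all genes 17.9 kb. A summit lay within 10 kb of the start of 10 of the 435 members. The same held for 12307 of all 34653 genes and 89 of 1243 olfactory receptor genes. The nearest summit was over 1 Mb away for 345 of all genes and 0 olfactory receptor genes. For 52 members it was over 1 Mb away. Of these, 15 and 28 lie in a pair of summit-free stretches of chromosome 7 with 11.2% and 4.49% unique starts, where binding was hardly detectable, and 9 in a stretch of chromosome 17 with 74.3% unique starts.

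Few members had a summit in the gene or the 5 kb on each side. There were 9 of 435, 2.07% (Wilson interval 1.09 to 3.88), where 41.4% of all genes had one. They were 3 of 256 Vmn1r genes and 6 of 179 Vmn2r genes, or 5 of the 327 protein coding members. Member regions are shorter than those of all genes, with a median of 11 kb against 15.9 kb. Olfactory receptor genes, with the same median of 11 kb, had a summit in 3.94% of cases (2.99 to 5.17). These shares are not matched for unique sequence. Under 10% of starts were unique for 80 of the 435 members, where a summit could hardly be called. No tag of either library lay in the regions of 62 members and of 2 of the 1243 olfactory receptor genes. Within the gene body the count was 3 members, 0.690%, against 25.3% of all genes. These 3 were Vmn1r90, Vmn2r7 and the pseudogene Vmn2r-ps11, and the last pair overlap and share the same summits.

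The summit in Vmn1r90 was among the highest in any cluster. It lay in an intron of a gene body annotated from 15116003 to 15208415 on chromosome 7, far longer than the median member body of 1.02 kb, and 86428 bp downstream of the annotated start. Its height was 20 tags, with 30 CTCF and 1 IgG tags within 150 bp. Over the whole region of the gene the tag totals were 301 CTCF and 291 IgG, a scaled ratio of 0.985 (adjusted p = 0.948, exact binomial test over all genes).

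Vmn2r7 on chromosome 3 and the overlapping Vmn2r-ps11 held summits at 64595022 and 64646388, with heights of 10 and 14 tags. Despite these 2 summits the whole region of Vmn2r7 had fewer CTCF than IgG tags for their depth, 336 against 433, a ratio of 0.739 (adjusted p = 1.53e-04, exact binomial test with Benjamini-Hochberg adjustment over 34653 genes). Vmn2r-ps11 had 359 against 468 tags, a ratio of 0.730 (adjusted p = 3.70e-05, the same exact test).

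The other members with a summit had it within 5 kb outside the gene body. Vmn1r80, with a summit of height 12, had 53 CTCF and 43 IgG tags, and Vmn1r212, with a summit of height 14, had 56 and 42. Vmn2r19 had a summit of height 8, with 121 CTCF and 155 IgG tags. The pseudogenes Vmn2r-ps76 and Vmn2r-ps77 lie on either side of the same summit, of height 13, with 70 CTCF tags each against 44 and 39 IgG tags. Vmn2r-ps94 had a summit of height 11 and 55 CTCF against 51 IgG tags.

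In tags as well, members had little CTCF signal. Counts per member region were low, with medians of 25 CTCF and 35 IgG tags and highest values of 359 and 468. By the exact binomial test of each gene region, 2 of 435 members had more CTCF than IgG tags at an adjusted p under 0.05. The same held for 33.1% of all genes and 3.06% of olfactory receptor genes. The first of the 2 members was Vmn2r-ps77, beside the summit just named (ratio 1.71, adjusted p = 0.0199 in the exact test). The second was the pseudogene Vmn1r-ps2 near the start of chromosome 4, with 16 against 4 tags, a ratio of 3.81 (adjusted p = 0.0319 in the exact test). It has no summit, and 21.5% of the 35-mer starts in its cluster are unique. In the other direction, 88 members had fewer CTCF than IgG tags, 20.2%, where 8.47% of all genes did. The lowest p was that of Vmn2r60, with 175 against 264 tags and a ratio of 0.631 (adjusted p = 1.21e-05 in the exact test, a gene named after its values were seen). Among Vmn1r genes, Vmn1r29 had 15 against 44 tags, a ratio of 0.325, and was likewise named after its values were seen. The 88 were 38 Vmn1r and 50 Vmn2r genes, and the Vmn2r regions are longer, with medians of 28.1 against 10.9 kb, and hold more tags. With scaling by the tags outside peaks the counts were 5 higher and 53 lower, beside 13874 and 1455 of all 34653 genes. No tag of either library lay in 62 member regions, 48 of them Vmn1r, and 58 of these 62 had under 10% unique starts.

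Over all clusters together, 30799 CTCF and 40146 IgG tags gave a scaled ratio of 0.730 (exact interval 0.720 to 0.741), and the ratio elsewhere was 1.01. Peaks held 11.7% of the CTCF tags on these chromosomes, which by construction lowers the scaled ratio of the remaining sequence. Outside peaks the ratio was 0.714 (0.704 to 0.725) in the clusters and 0.900 elsewhere, or 0.794 (0.782 to 0.806) when both libraries were scaled by their tags outside peaks. Scaled by library totals, the ratio outside peaks was 0.723 in the gaps between genes, 0.772 in olfactory receptor clusters and 0.867 in the flanks. Scaled by tags outside peaks, these ratios were 0.804, 0.859 and 0.964. GC content was 39.0% in the clusters, 38.6% in the gaps and 38.9% in olfactory receptor clusters, below the 40.8% of the flanks and the 42.0% elsewhere. The part of GC content in the ratio was not tested. Outside peaks the ratio was 0.706 in Vmn1r clusters, at 40.2% GC, 0.732 in Vmn2r clusters, at 38.2% GC, and 0.689 in clusters with both, at 38.7% GC.

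By cluster, 30 of the 50 vomeronasal clusters had fewer CTCF than IgG tags in the exact binomial test at an adjusted p under 0.05, beside 54.1% of all 111 vomeronasal and olfactory receptor clusters. One had more, beside 7.21% of all. That cluster, from Vmn1r135 to Vmn1r-ps83 on chromosome 7, had 31 CTCF and 13 IgG tags over 1407 kb (ratio 2.27, interval 1.15 to 4.73, adjusted p = 0.0262 in the exact test). Its unique starts made up 1.61%, and outside its 1 peak it had 15 CTCF and 13 IgG tags. In the same test against library totals, 30 of the 61 olfactory receptor clusters were lower and 7 higher. In tags outside peaks, scaled by their totals, 25 vomeronasal clusters were lower and 0 higher. The share of all 111 clusters under this second scaling is not given here, so these counts lack a background.

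The 5 clusters with most members ranged widely in unique sequence. The largest, from Vmn1r91 to Vmn1r132 on chromosome 7 (20681507 to 22405004), has 39 members in 1723 kb. It had 0 summits, but 3.59% of its 35-mer starts were unique and it held 36 CTCF and 49 IgG tags, so binding there was not detectable at this depth and tag length. The cluster from Vmn2r-ps62 to Vmn2r76 (chromosome 7, 91953938 to 93399711) has 36 members, 12 of them protein coding, in 1446 kb with 74.6% unique starts. It held 3 summits, with heights of 12, 13 and 18 tags, and its 3044 CTCF and 3819 IgG tags gave a ratio of 0.759 (adjusted p = 5.09e-29, exact binomial test). The Vmn1r188 to Vmn1r223 cluster (chromosome 13, 22174747 to 23347192), also with 36 members, held 1 summit in 1172 kb with 61.3% unique starts, and had 2183 CTCF and 2973 IgG tags (ratio 0.699).

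The mixed cluster from Vmn1r-ps53 to Vmn2r56 (chromosome 7, 12233479 to 13323454) has 34 members and held 2 summits in 1090.0 kb with 68.3% unique starts. One of the 2 lies in an intron of the zinc finger gene Zfp606, which is not a receptor gene. The cluster from Vmn1r-ps25 to Vmn1r54 (chromosome 6, 89643711 to 90225047) has 23 members in 581 kb with 64.8% unique starts. It held no summit, against 11 in its flanks, 9 of these on the left side, and its 1180 CTCF and 1622 IgG tags gave a ratio of 0.693.

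The cluster from Vmn2r8 to Vmn2r17 (chromosome 5, 109221212 to 109887406) was the one with the most summits. Its 10 members lie in 666 kb with 61.8% unique starts, and 5 summits gave heights of 13, 12, 14, 10 and 9 tags. All 5 summits had a motif of 17.5 bits on the plus strand, and the 19 bases were identical at every one, TGGCCAGCAGATGTCAGAA. On chromosomes 1 to 19 this motif sequence occurred 6 times. All 6 copies were in this stretch of chromosome 5, and all 6 had a summit within 150 bp. The sequence was picked from the 5 summits of the cluster, so only the copy outside its edge could have lacked a summit.

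The 6 copies, each at a called summit, gave like counts. The copy outside the edge, in an intron of Tmed11, had a summit of height 11. Within 150 bp of the motif the CTCF tags were 13, 16, 13, 15, 15 and 14 from left to right, and the IgG tags were 1, 1, 2, 3, 1 and 3. Between 69.1% and 83.7% of 35-mer starts in these windows were unique, and position by position the 301-base windows of the 5 copies inside the cluster were 48.5 to 94% identical in 10 pairs. From the first to the last summit inside the cluster the steps were 30.7, 166, 39.6 and 67.3 kb. The ratio of the whole cluster was 0.924 (0.861 to 0.992, adjusted p = 0.0455 in the exact binomial test), and 0.966 in tags outside peaks scaled by their totals (adjusted p = 0.477).

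**Figure D4:**
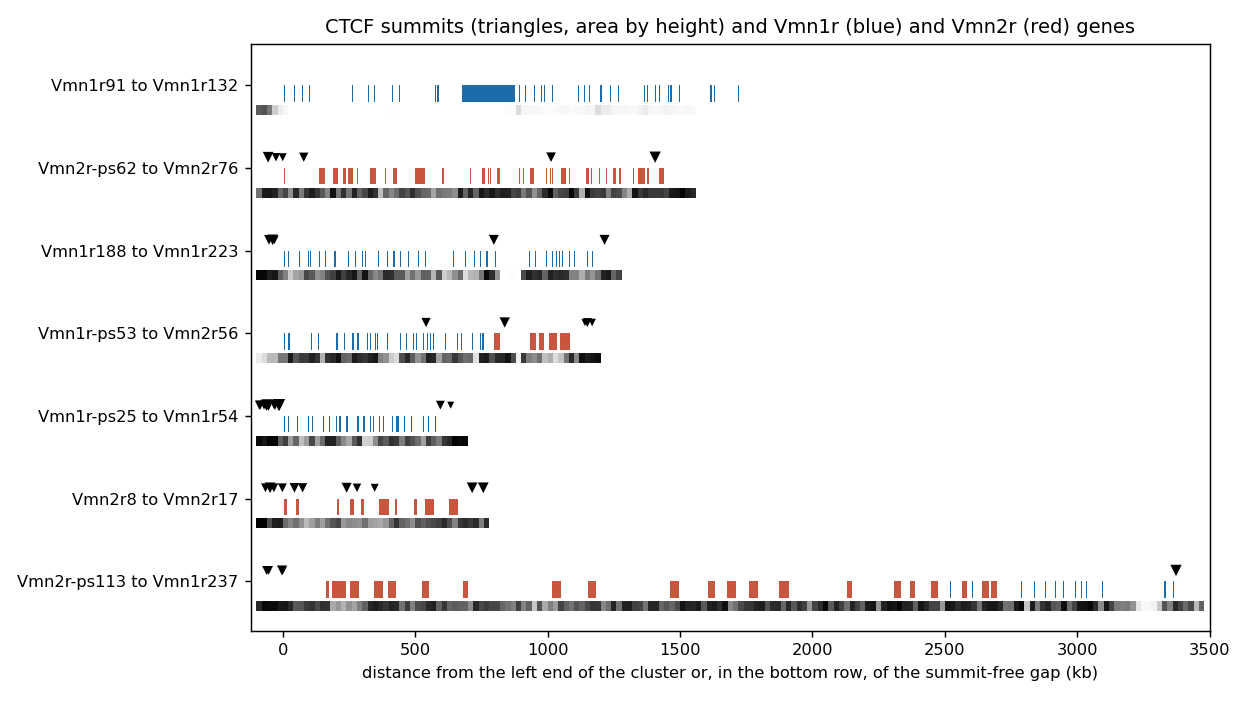
Vmn1r genes (blue) and Vmn2r genes (red) and CTCF summits (triangles, area by height in tags) in the 5 clusters with most members, in the cluster with 5 summits and in a summit-free gap of chromosome 17, by distance in kb from the left end; the strip under each row shades the share of unique 35-mers in 20 kb bins from white (0%) to black (100%), and 100 kb on each side is shown. Within the Vmn1r91 to Vmn1r132 cluster the strip is nearly white, with 3.59% unique starts in all, while the bottom row is mostly dark and has no summit across 3373 kb.

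In share with a motif and in median height, the few summits in the clusters were close to those elsewhere. Of the 29 summits, 23 had a motif within 150 bp, 79.3% (Wilson interval 61.6 to 90.2), against 72.6% (72.1 to 73.1) of summits elsewhere. Among the 23, 5 carried the same 19 bases, and the interval treats these copies as separate sites. The median height was 12 tags (order-statistic interval 10 to 14), and 13 elsewhere. Each of the 29 had between 8 and 30 CTCF tags and at most 3 IgG tags within 150 bp. Of these windows the median share of unique starts was 97%, and the lowest was 62.8%. All summits, inside and elsewhere, belong to peaks called against this IgG library. Low IgG counts and a least height are therefore partly set by the peak calling.

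The 29 summits were mostly not at receptor genes. There were 8 in the region of a member and 21 outside every member region, and 23 lay between annotated genes. The highest, with 26 tags (26 CTCF and 1 IgG within 150 bp), was 52 bp upstream of the start of Clcn4-2, a gene of the chloride channel family, and 37968 bp from the nearest member start, that of Vmn2r30. It and 1 other summit lay within 5 kb of the start of a protein coding gene that is not a member. The site nearest to Vmn1r235 on chromosome 17 had 18 tags in height and the highest score, 317, with 26 CTCF and 2 IgG tags. The site nearest to Vmn2r-ps86 had 18 tags in height, with 18 CTCF and 1 IgG tags, and a motif of 22.2 bits. The Zfp606 site had 15, with 21 CTCF and 0 IgG tags.

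The sequence of the clusters also held fewer motifs. There were 1065 motifs at the threshold of 1e-05, 51.7 per Mb, against 104 per Mb elsewhere, a ratio of 0.499 (0.469 to 0.530). The ratio was 0.709 at a threshold of 1e-04 and 0.403 at 1e-06. Olfactory receptor clusters stood at 0.526 and the gaps between genes at 0.428. Of the 1065 cluster motifs, 23 (2.16%, interval 1.44 to 3.22) had a summit within 150 bp, and of those elsewhere 10.5%.

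Many of these motifs are copies of each other. Of the 1065, 635 shared all 19 bases with at least 1 other cluster motif, and there were 559 different sequences. The most frequent, CCGTCACAAGATGGCGCTG, occurred 32 times on chromosomes 5, 6, 7 and 13. None of the 32 had a summit, and together they had 1 CTCF and 3 IgG tags, at a mean of 7.67% unique starts. The sequence ATGCCACAAGAGGGCACTA, at 22.9 bits, occurred 15 times on chromosome 7 with 5.51% unique starts and no tag of either library. The sequence ACACCAGAAGAGGGCATCA, at 18.6 bits, occurred 20 times with 54.1% unique starts. It had 18 CTCF and 8 IgG tags over all copies and no summit. These sequences were picked after their counts were seen, as were the copies on chromosome 5.

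Restricted to motifs with at least 50% unique starts within 150 bp, 461 remained and 23 of them had a summit, 4.99% (3.35 to 7.38). Elsewhere the share was 11.9%, and in the flanks 12.9% (10.4 to 15.8). In olfactory receptor clusters it was 6.62% (5.39 to 8.10), and in the gaps between genes 5.79% (5.41 to 6.18). Both of these shares lay within the interval for the vomeronasal clusters. If each cluster motif had a summit as often as motifs of its score elsewhere, 38.4 would have had one, against 23 (exact Poisson interval 14.6 to 34.5). By score, the interval for the clusters excluded the value elsewhere at 15 to 17 bits and included it in the other ranges. At 15 to 17 bits, 2 of 114 cluster motifs had a summit, 1.75% (0.482 to 6.17), against 8.42% elsewhere. At 17 to 19 bits the shares were 10.4% (5.15 to 20.0) and 12.8%. At 19 bits or more, 9 of 29 cluster motifs had a summit, 31% (17.3 to 49.2), against 42.0% elsewhere, a difference within the interval.

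**Figure D5:**
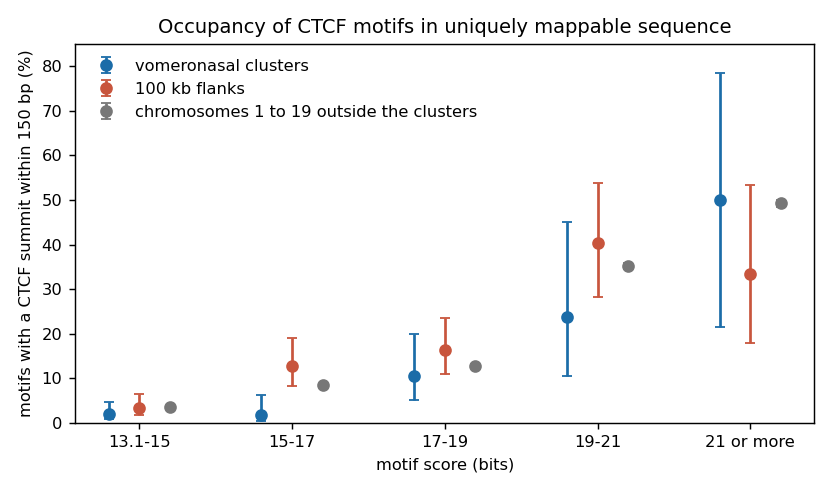
Percentage of CTCF motifs with a summit within 150 bp, by motif score in bits, in the vomeronasal clusters (blue), their flanks (red) and the rest of chromosomes 1 to 19 (grey), for motifs with at least 50% unique 35-mer starts around them; bars are Wilson intervals. At 15 to 17 bits the clusters lie at 1.75% against 8.42% elsewhere, and at 19 bits or more their intervals include the value elsewhere.

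Below the level of a deposited peak, motifs in the clusters still had more CTCF than IgG tags. Around the 1040 cluster motifs without a peak or summit there were 621 CTCF and 403 IgG tags within 150 bp, a scaled ratio of 1.47 (1.29 to 1.67), against 0.714 for all cluster sequence outside peaks. Elsewhere the corresponding ratio was 2.02 (2.01 to 2.04). For the stronger motifs, at the threshold of 1e-06, 208 against 78 tags gave 2.54 (1.95 to 3.34) in the clusters and 3.65 elsewhere. At both thresholds the interval for the clusters lay below the value elsewhere, and the stronger motifs are a part of the full set. In olfactory receptor clusters the ratios were 1.57 and 2.90, and in the gaps between genes 1.37 and 2.79. The intervals for the vomeronasal clusters include these values, so these region classes were not told apart.

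The strongest motifs without a summit had few tags of either library. The motif 19863 bp upstream of Vmn1r224 on chromosome 17 had 2 CTCF and 1 IgG tags, with 70.4% unique starts. The motif upstream of Vmn1r181 on chromosome 7, with the same 19 bases, had 4 CTCF and 0 IgG tags at 44.9% unique starts. The second motif in the Vmn1r90 intron had 8 CTCF and 3 IgG tags, against 30 and 1 at the bound site in the same gene, where the motif scored 13.7 bits. Within this gene the motif with the lower score was the one that carried the summit.

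Several clusters lay in some of the longest stretches of the genome without a CTCF summit. Between neighbouring summits of a chromosome there were 33207 gaps, with a median of 25.2 kb. The 65 gaps that overlap a vomeronasal cluster had a median of 297 kb, and the 178 that overlap an olfactory receptor cluster 99.2 kb. Long gaps are more likely to overlap a cluster, so neither median can be read against that of all gaps. Of the 10 longest gaps, 3 held vomeronasal clusters, 11 clusters in all. The first pair of these are on chromosome 7 and had little unique sequence. The gap of 3688 kb from the Clcn4-2 site to 10940248 holds 37 members at 11.2% unique starts, and the gap of 3393 kb from Ceacam20 to a summit 53637 bp from the Vmn1r165 start holds 59 members at 4.49%.

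The gap on chromosome 17, from a summit inside the annotated Fpr3 gene at 18036273 to the site nearest to Vmn1r235 at 21409244, was different in this respect. It spans 3373 kb with 74.3% unique starts and holds 34 members of 5 clusters, the last of which extends beyond it. It held 6514 CTCF and 9024 IgG tags, a ratio of 0.687 (0.666 to 0.710), and the IgG density was 0.826 times that outside the clusters. At the rate per unique start elsewhere this stretch would hold 40.8 summits. A gap between neighbouring summits has none by definition, so their absence here is not a test. Among the 10 longest gaps, those without vomeronasal clusters and with more than 74.3% unique starts would hold 44.8 to 62.5 at this rate. Their tag ratios were 0.685 to 0.716, a range that includes the 0.687 here. The gaps without such clusters and with fewer unique starts had ratios of 0.731 and 1.16. The chromosome 17 gap has 81 motifs at the threshold of 1e-05 with at least 50% unique starts. Within it, the clusters Vmn2r-ps113 to Vmn2r96, Vmn2r97 to Vmn2r98, Vmn2r99 to Vmn2r103 and Vmn2r104 to Vmn1r233 had ratios between 0.622 and 0.699, each lower at an adjusted p under 0.05 in the exact binomial test. The fifth, at its right end, holds the Vmn1r235 summit and had a ratio of 0.947. This gap was singled out after its values were seen.

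The nearest summits beyond the edges of each cluster did not stand at a fixed distance or in a fixed orientation. Outside here means outside the cluster in question, so some of these summits lie inside a neighbouring vomeronasal cluster. Examples are those at 7252274 and 23948714 on chromosome 7 and 21409244 on chromosome 17. The distances and orientations below therefore do not describe only summits outside all clusters. Over 98 cluster edges with a summit beyond them, the median distance was 114 kb, from 0.332 to 3325 kb, and 47 were within 100 kb. Of these summits 72 had a motif, with 35 oriented into the cluster and 37 away from it. Among the 24 clusters with a motif on both sides, both pointed inward in 5, both outward in 6 and both in one direction in 13. For olfactory receptor clusters the median distance was 39.2 kb, and of 34 such clusters both motifs pointed inward in 6. Neighbouring clusters can share an outside summit, so these edges are not independent.

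At the largest cluster, Vmn1r91 to Vmn1r132, the left outside summit was 126203 bp away in an intron of Ceacam20, with a height of 12, and the right one, 1543710 bp away, was the summit nearest to Vmn1r165 in the next cluster, with a height of 14. At the Vmn2r-ps62 to Vmn2r76 cluster the left outside summit was 332 bp from the edge, without a motif and with a height of 9. The right one was 134826 bp away, in the olfactory receptor gene Olfr304, with a height of 15 and a motif oriented into the cluster. At the Vmn1r188 to Vmn1r223 cluster the outside summits were 31738 bp to the left, toward the histone gene Hist1h2bj, with a height of 10, and 42748 bp to the right, toward Zfp322a, with a height of 14.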

How the data were processed

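The authors aligned 35 bp reads to mm9, a build the submitters' processing notes name (the aligner is not given in the sources used here) and deposited 1 line per tag, a count of 1 without normalization. They also deposited peaks, called against IgG with MACS 1.4 by the submitters' processing notes, with the significance score MACS writes (lowest 50.0), and summits with a signal, the pileup height in tags. These gave 33788 peaks, 33226 of them on chromosomes 1 to 19. The members and lists were chosen with earlier results of these data known.

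Here each tag was placed 93 bp into its fragment, whose length of 186 bp was read off the strand offset at the 1000 highest scoring peaks. Tags were counted with Python 3.11.15, numpy 2.4.6 and scipy 1.17.1. No position and strand occurred repeatedly (0 in either library). "Elsewhere" is chromosomes 1 to 19 outside the clusters, and densities leave out undetermined bases. Uniqueness was computed for every 35-mer of mm9 on both strands. Ratios carry exact conditional intervals and shares Wilson intervals. Gene and cluster regions were tested with the exact binomial test, two-sided, against the library totals, with Benjamini-Hochberg adjustment over 34653 genes or 111 clusters. The matrix used a pseudocount of 1 and base frequencies of 0.29 and 0.21. Named items were the 5 clusters with most members, clusters with at least 5 summits, the 5 highest summits, the outside summits of the 3 largest clusters, the 3 highest-scoring motifs without a summit, and members with a summit in the body or more CTCF than IgG tags, others being named as chosen later. R1/E comes from another mouse strain than the reference genome, and differences between them were not analysed here. Scripts were tested on simulated data.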

Additional observations from a re-analysis of the deposited data

How the results depend on the processing

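Each antibody had 1 library, so leaving out a replicate was not possible, and intervals cover counting error alone. No paired analysis was possible because each antibody had 1 library. Of 46 alternatives over 12 results, 22 stayed within the counting interval of the value, or within 1.5 times a count, and 24 moved beyond it. The cause was not tested except where the alternative's own construction (fewer or more genes, motifs, peaks or bases) gives it.

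A score of at least 100 left 15 of the 29 summits in clusters. Joining regions under 500 kb apart gave 58 summits, a summit density of 0.163 times that elsewhere, a tag ratio of 0.768 and an IgG density of 0.614 times that elsewhere, and joining under 100 kb gave an IgG density of 0.628. Per unique 35-mer start the summit density was 0.175 and the IgG density 1.04 times that elsewhere. The cluster tag ratio was 0.813 scaled by tags outside peaks, 0.714 in tags outside peaks and 0.795 with both, the last chosen after seeing the data. The flank ratio was 1.08, above 1, when scaled by tags outside peaks, 0.867 in tags outside peaks and 0.942 in flanks of 50 kb. A motif lay within 50 bp of 37.9% of cluster summits. Motif density was 0.709 and 0.403 times that elsewhere at thresholds of 1e-04 and 1e-06, and the share of motifs with a summit was 0.387% and 5.32%, or 4.99% with at least 50% of starts unique. Members with a summit numbered 3 in the gene body and 5 among protein coding members. Members with more CTCF than IgG tags numbered 5 when scaled by tags outside peaks and 0 at an adjusted p under 0.01 (exact binomial test), and 4 at an unadjusted p under 0.05. Among all 34653 genes the same counts were 13874, 9715 and 12490.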

Other observations

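Receptor genes of the vomeronasal organ that the symbol rule left out were also without summits where they lie in the clusters. V1ra8, V1rd19 and V1rh19, 3 genes of the Vmn1r family under older symbols, had 21, 32 and 30 CTCF tags and 36, 52 and 41 IgG tags in the same regions of gene and 5 kb on each side, and none had a summit. V1rd19 was lower at an adjusted p of 0.0409 (exact binomial test over all genes), and the other 2 were not called.

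The formyl peptide receptor genes, of which some act in the vomeronasal organ and others in immune cells, lie beside or among the chromosome 17 clusters. Fpr-rs3, Fpr-rs6 and Fpr-rs7, inside the cluster from Vmn2r104 to Vmn1r233, had 20, 20 and 26 CTCF tags against 33, 41 and 34 IgG tags, with no summit. Outside the clusters, Fpr1 and Fpr-rs4 also had no summit, with 62 against 93 tags (adjusted p = 0.0174 in the exact binomial test) and 38 against 43. Fpr2 and Fpr3, also outside, overlap and had 1 and 2 summits in their regions, with 121 against 86 and 338 against 357 tags.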
